A study of Mus musculus with 15 samples.

Results

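The genes described here are 37 peroxisome genes, out of 37991 genes in the count table, measured in inguinal white adipose tissue of mice. They were taken by symbol from a list of 39 biogenesis factors and peroxisomal lipid enzymes. Pex2 and Pex11g had no entry under these symbols, so 37 members were followed. RNA was sequenced from 15 libraries of C57BL/6 mice aged 8 weeks, 5 libraries in each of 3 genotypes. WT mice carried floxed LKB1 alleles (LKB1 F/F) and no Cre. KO mice carried AdipoqCre with the same floxed LKB1 alleles, and dKO mice carried AdipoqCre, floxed LKB1 and floxed HDAC4 (HDAC4 F/F). Floxed LKB1 was thus shared by all groups, and no group had AdipoqCre alone. The adiponectin promoter drives Cre in adipocytes, so the other cells of this whole tissue keep both genes. LKB1, encoded by Stk11, is a kinase that activates AMPK and related kinases, and HDAC4 is a class IIa histone deacetylase. KO against WT asks what targeting LKB1 did to these genes, and dKO against KO asks what the added HDAC4 alleles did.

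Peroxisomes are organelles bounded by a single membrane. Their matrix enzymes are made in the cytosol and imported folded, through a docking and receptor cycle run by proteins called peroxins. They shorten very long-chain and branched fatty acids, degrade phytanic acid by alpha-oxidation, start the synthesis of ether lipids and destroy the hydrogen peroxide that their oxidases make. The shortened acyl groups pass to mitochondria as carnitine esters or leave as free acids. In adipose tissue, peroxisomes are more numerous in brown than in white fat cells, and PPARalpha and PGC-1alpha are known regulators of peroxisomal genes.

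Sequence upstream of the transcription start was at hand for 32 of the 37 members, in 39 windows from RefSeq on build GRCm38.p6. Each window held 250 bases before the start and 50 after it, and 32851 windows of all genes gave the background. Shown here are Hacl1 and Nudt7, the members that passed a test below, and Cat, the member with the highest level. Capitals mark motif letters found by a search of both strands. In Hacl1 (chr14:31640916-31641215, minus strand), ATTGG, the reverse complement of CCAAT, begins at position -184 from the start. In Nudt7 (chr8:114133368-114133667, plus strand), the palindrome bound by NRF1 begins at -23. In Cat (chr2:103485104-103485403, minus strand), AGGTCA begins at -204, and CCAAT or its reverse complement begins at -230, -85, -55 and -13.
Hacl1: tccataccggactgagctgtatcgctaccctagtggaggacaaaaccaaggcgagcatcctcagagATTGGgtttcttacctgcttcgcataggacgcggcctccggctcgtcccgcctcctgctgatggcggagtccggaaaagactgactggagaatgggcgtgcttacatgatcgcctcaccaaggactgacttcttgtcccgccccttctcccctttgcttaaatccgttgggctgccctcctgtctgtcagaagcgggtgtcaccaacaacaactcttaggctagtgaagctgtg
Nudt7: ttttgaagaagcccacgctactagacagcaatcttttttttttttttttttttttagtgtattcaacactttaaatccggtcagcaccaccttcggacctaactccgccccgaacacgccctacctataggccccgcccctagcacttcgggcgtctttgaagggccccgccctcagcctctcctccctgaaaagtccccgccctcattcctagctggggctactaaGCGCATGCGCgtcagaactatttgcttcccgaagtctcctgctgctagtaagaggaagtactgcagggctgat
Cat: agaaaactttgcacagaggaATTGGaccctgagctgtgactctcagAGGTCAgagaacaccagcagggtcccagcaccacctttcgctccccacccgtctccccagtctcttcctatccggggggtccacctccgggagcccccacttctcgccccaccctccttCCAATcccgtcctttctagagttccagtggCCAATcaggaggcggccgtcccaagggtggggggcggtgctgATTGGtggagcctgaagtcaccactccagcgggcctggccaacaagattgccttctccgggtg

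PPAR binds with RXR to a direct repeat, searched here as a pair of AGGTCA copies with 1 base of any kind between them. It was in 0 of the 39 member windows and in 0.0396% of all windows. Its looser form, with AGGNCA in place of AGGTCA, was likewise in 0 member windows, against 0.381% of all. A single AGGTCA, which lies within the strict repeat and within the next motif, was in 3 member windows (7.69%), those of Phyh, Cat and Scp2, against 16.3% of all. TCAAGGTCA, the motif of estrogen-related receptors, was in 0 member windows and in 0.423% of all. At shares this low, 0 of 39 windows cannot set the members apart from all genes, here or for the 2 forms of the repeat. TGACGTCA, the cAMP response element, was in 1 member window (2.56%), that of Pex13, against 1.79%. The palindrome bound by NRF1, in capitals in the Nudt7 window above, was in 2 member windows (5.13%), both of Nudt7, which has 2 overlapping windows in the table, against 0.971%. CCAAT, bound by NF-Y, was in 17 windows of 16 members (43.6%) against 37.4% of all. These matches describe letters in a window and are not binding sites.

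Libraries held 1564004 to 21570688 counts, of which the mitochondrial ribosomal RNAs took 33.5 to 50%. The 37 members together had 3916 to 52039 counts per library. Adipoq, the adipocyte hormone adiponectin, had a mean level of 409 CPM (counts scaled to a common library total after TMM) over WT, 336 over KO and 373 over the dKO libraries. It is 1 of 10 adipocyte markers, whose summed means were 8677, 10173 and 11402 CPM. Without the dKO libraries titled 1753 and 1753-2 the dKO mean of this sum was 8355 CPM. In KO against WT 7 of the 10 were higher and 3 lower, and in dKO against WT 6 were higher and 4 lower. The targeted Stk11 stood at 29.6 ± 6.33 CPM for WT, 18.0 ± 4.20 for KO and 19.4 ± 2.84 for dKO (SD, n = 5), and its log2 fold change of -0.69 for KO against WT did not pass the edgeR quasi-likelihood test (adjusted p = 0.115). Hdac4 (ENSMUSG00000026313) stood at 12.2 ± 3.16 CPM for WT, 10.3 ± 2.16 for KO and 10.3 ± 0.794 for dKO, with -0.03 for dKO against KO (adjusted p = 0.99). A second Hdac4 entry (ENSMUSG00000073617) stood at 7.08 ± 1.29, 5.45 ± 1.24 and 5.49 ± 1.01 CPM, with -0.04 for dKO against KO (edgeR adjusted p = 0.989). Reads from other cells and from exons outside a deleted stretch count toward Stk11 and Hdac4, so whole-gene counts do not check the deletions. The dKO libraries titled 1753 and 1753-2, called dKO replicates 4 and 5 here, stood apart. The first principal component took 30.2% of the variance, and on it they lay at 60.9 and 60.3 and the other 13 libraries between -39.9 and 12.6. Their titles leave it unclear whether they come from the same mouse. Their correlation over genes in log2 CPM, 0.988, was the highest of the 30 pairs within groups (next 0.983). Their counts differed by 4.60 times the counting noise per degree of freedom, where other pairs ran from 4.48 to 43.2. They therefore differ beyond counting noise, which does not show whether they are separate mice. They were entered as 2 libraries, as the labels list them, and most comparisons with dKO are also given without them. Barcodes 12 to 16 served dKO alone, so barcode and this genotype cannot be told apart. Nothing in the labels pairs mice, and p-values measure the spread between these libraries.

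Levels of the members, compared per kilobase of exon, spanned several orders of magnitude. Cat encodes catalase, which splits hydrogen peroxide, and it led with a mean over the groups of 293 RPKM (CPM per kilobase of exon). Scp2 came next at 75.3 RPKM and encodes both a peroxisomal thiolase for branched chains and a sterol carrier protein. Abcd2, a transporter that brings very long-chain acyl-CoA into the organelle, stood at 47.4 RPKM. Hsd17b4, the multifunctional enzyme of the middle steps of peroxisomal beta-oxidation, stood at 42.8 RPKM, and Phyh, the hydroxylase that opens phytanic acid breakdown, at 35.8 RPKM. Acox2 was lowest, at 0.0785 RPKM. It encodes an oxidase of branched-chain and bile acid intermediates and had 0 to 7 counts per library, 29 in all. Acox2, the thiolase gene Acaa1b (1 to 90 counts per library, 260 in all) and the thioesterase gene Acot8 (2 to 46 counts, 209 in all) did not reach the count filter, so 34 of the 37 members were tested.

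**Figure D1:**
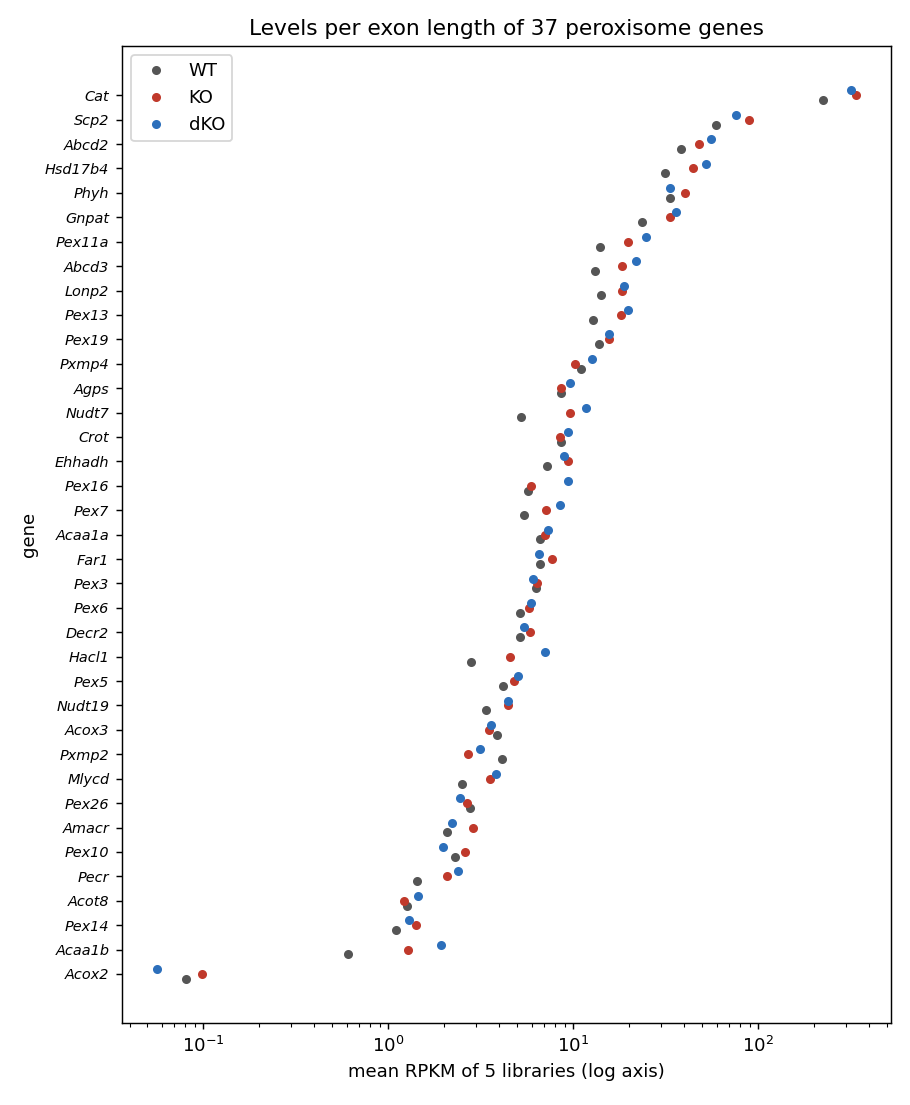
Mean RPKM (CPM per kilobase of exon, log axis) of each of the 37 peroxisome genes, with 1 point for the mean of the 5 libraries of each genotype. Cat leads at a mean over the groups of 293 RPKM and Acox2 is lowest at 0.0785 RPKM.

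KO against WT gave modest differences that were mostly upward, and none passed the test for a single gene. Of the 34 tested members 27 had a positive log2 fold change, with a median of 0.32 (range -0.59 to 0.87), where 50.6% of all 12188 tested genes were positive with a median of 0.01. With edgeR 0 members had an adjusted p under 0.05, where 0.624% of all genes did. At an unadjusted p under 0.05 there were 11 members, all higher in KO, which is 32.4% of those tested against 9.54% of all genes. DESeq2 called 1 member, Hacl1, against 1.42% of all genes, and limma voom with sample weights called 3, Hacl1, Nudt7 and Gnpat, against 2.35%. The edgeR fit without libraries 1753 and 1753-2 called Hacl1 and Nudt7, 2 of 35 members (Acot8 then reached the filter), against 2.14% of its 12598 genes, and put 14 members, all higher, at an unadjusted p under 0.05, against 12.9%. In 4 members, Pex13, Hsd17b4, Hacl1 and Nudt7, every KO library lay above every WT library, as in 2.11% of all genes. In bulk tissue, fewer cells of a type and less RNA per cell cannot be told apart.

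dKO against KO showed no call either, and the sign of its median depended on the 1753 libraries. The median log2 fold change was 0.08 with 23 of 34 positive, beside a median of 0.00 and 50.4% positive over all genes. edgeR called 0 members against 0.0738% of all genes, DESeq2 called 0 against 0.304%, and voom called 0 against 0.0738%. At an unadjusted p under 0.05 there were 3 members, Hacl1 and Pex16 higher and Phyh lower in dKO, where 6.17% of all genes were below it. Without libraries 1753 and 1753-2 the median was -0.15, 8 of 35 members were positive, and 0 were called against 0.151% of all genes, with 3 at an unadjusted p under 0.05, of which 1 was higher, against 9.36% of all genes. These were Hacl1, higher, and Scp2 and Pex10, lower. Pex10 had a log2 fold change of -0.72 there (edgeR adjusted p = 0.453). It was at 3.9, 6.28 and 4.97 CPM in dKO replicates 1, 2 and 3, below all KO libraries at 7.6 to 9.44. With all libraries, every dKO library lay above every KO library in 1 member, Hacl1, as in 0.656% of all genes.

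dKO against WT shares its WT samples with the first comparison and its dKO samples with the second. Hacl1 and Nudt7 rose, 2 of 34 members against 0.615% of all genes. The median log2 fold change was 0.31 with 28 positive, beside 0.00 and 49.7% over all genes. At an unadjusted p under 0.05 there were 14 members, all higher in dKO, against 14.5% of all genes. DESeq2 called 4, adding Gnpat and Pex13, against 1.93%, and voom called Hacl1 alone against 0.23%. In 2 members, Hacl1 and Cat, every dKO library lay above every WT library, as in 1.3% of all genes. Without libraries 1753 and 1753-2, Hacl1 alone passed, 1 of 35 against 0.238% of all genes, the median was 0.10 and 23 were positive. In that fit 5 had an unadjusted p under 0.05, against 7.9%, of which 4 were higher. The lower one was Pxmp2, at -0.92 (edgeR unadjusted p = 0.0403, adjusted p = 0.589). The test of any difference among the 3 genotypes passed for the same pair, with adjusted p = 0.00076 for Hacl1 and 0.0467 for Nudt7 in edgeR, against 0.689% of all genes.

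**Figure D2:**
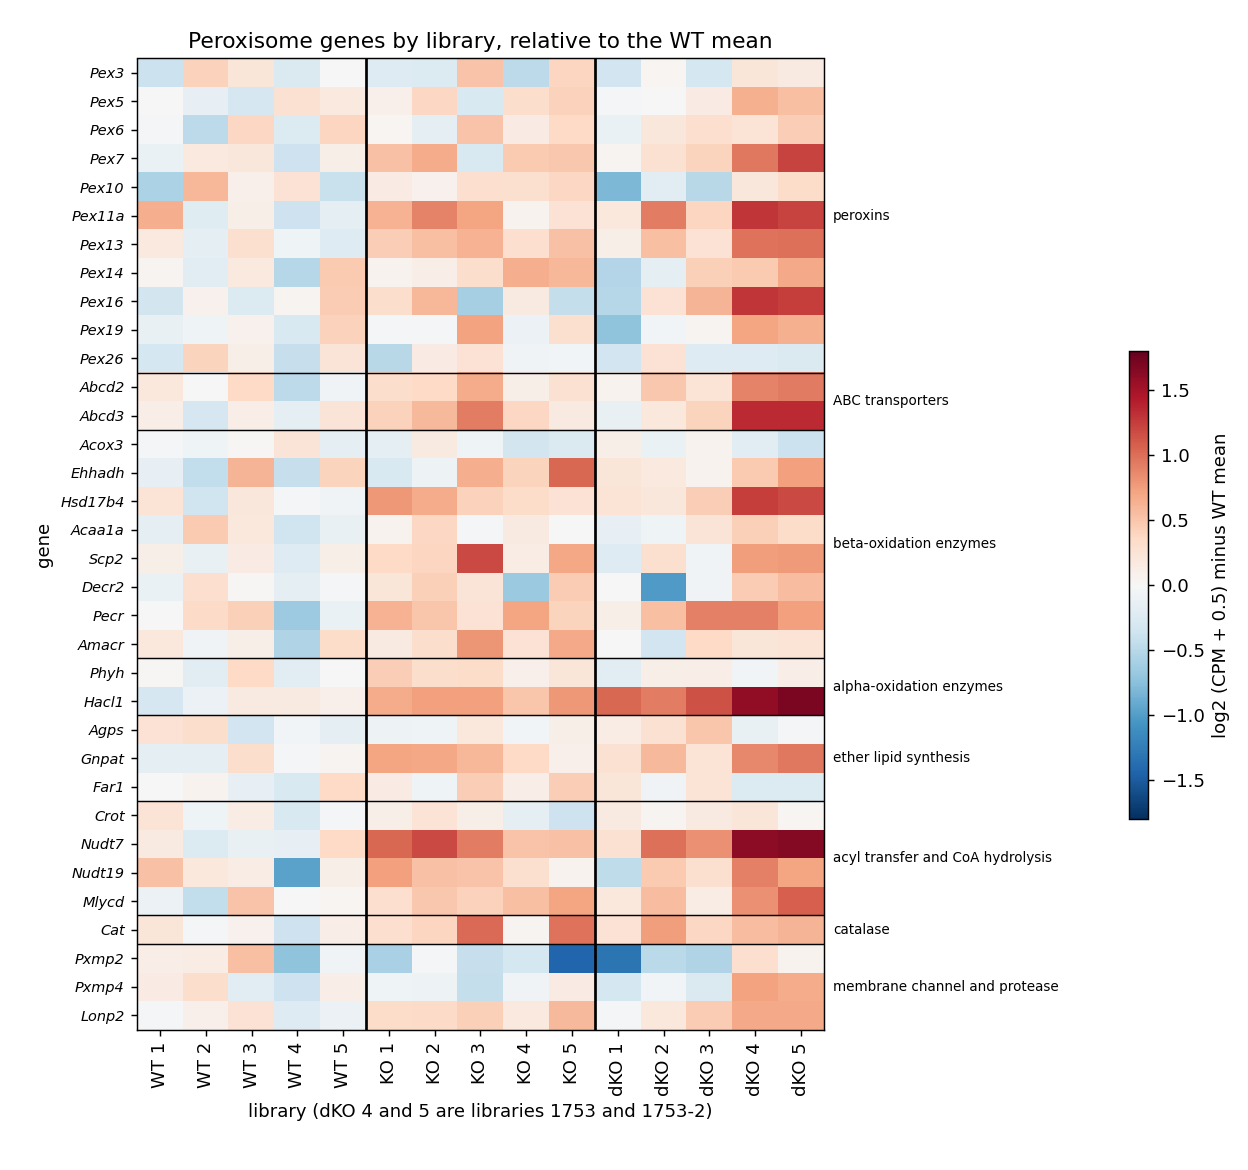
Each cell gives log2 (CPM + 0.5) of 1 tested peroxisome gene in 1 library minus the mean of the 5 WT libraries, with genes grouped by role and red above WT. The KO columns are mostly light red, the columns of dKO replicates 4 and 5 (libraries 1753 and 1753-2) are the darkest, and Hacl1 is red in all 10 KO and dKO libraries.

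Seen by library, the median over the 34 members of the log2 ratio to the WT mean was 0.00, -0.07, 0.14, -0.26 and 0.07 in the 5 WT libraries, 0.26, 0.36, 0.42, 0.16 and 0.36 in KO, and -0.01, 0.19, 0.24, 0.66 and 0.68 in dKO. All 5 KO libraries were above all 5 WT libraries, with the lowest KO at 0.16 and the highest WT at 0.14. The dKO group split, with replicates 4 and 5 above every KO library and replicate 1 within the WT range. Over all tested genes the same median stayed between -0.01 and 0.04, where TMM scaling itself holds it near 0. It therefore does not show how far a median of 34 genes varies between libraries. Both 1753 libraries exceeded all 13 others in 15 of the 34 members (44.1%), as they did in 15.1% of all genes, and lay below all others in 0 members. Those 15 were Pex5, Pex7, Pex11a, Pex13, Pex16, Abcd2, Abcd3, Hsd17b4, Decr2, Hacl1, Gnpat, Nudt7, Mlycd, Pxmp4 and Lonp2. The same 2 libraries had the highest summed lipogenesis markers, 32020 and 32484 CPM against 8148 to 20753 in the other 13, the highest summed adipocyte markers, 16014 and 15931 against 6993 to 12904, and the lowest summed lymphocyte markers, 190 and 194 against 521 to 962. The part of these markers in the member values was not tested.

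Among the tested members, the largest log2 fold change in dKO against WT was that of Hacl1, one of the pair of alpha-oxidation genes. The other, Phyh, was at 0.01. With no expression filter, which let in the low-count Acaa1b, Acot8 and Acox2, the highest value over 37 members was 1.86, above those of Hacl1 in any fit. That fit called 2 members, against 0.353% of all genes. Acaa1b, with 1 to 90 counts per library, was at 0.31 to 1.87 CPM in WT. In dKO it was at 1.3, 3.01 and 1.24 CPM, and at 5.72 and 7.63 in the 1753 libraries. Hacl1 (ENSMUSG00000021884, mm9 chromosome 14, 32366091 to 32454472, minus strand, 21 exons) encodes the 2-hydroxyacyl-CoA lyase that removes a carbon from phytanic acid derivatives. It was at 11.5, 13.3, 16, 16 and 15.2 CPM in WT, at 23.1, 24.1, 24.1, 20.4 and 25.0 in KO, and at 29.9, 27.4, 32.3, 44.3 and 47.5 in dKO. The 3 groups did not overlap, with all KO libraries above WT and all dKO libraries above KO. Group means were 14.4 ± 1.97, 23.4 ± 1.77 and 36.3 ± 9.04 CPM (SD, n = 5). In dKO against WT Hacl1 rose by a log2 fold change of 1.35 (SE 0.17, 2.55-fold, edgeR adjusted p = 0.00132), and without libraries 1753 and 1753-2 by 1.04 (adjusted p = 0.00403). It passed under all 24 alternatives tried, with log2 fold changes of 1.04 to 1.42 and adjusted p from 6.6e-09 to 0.013. In KO against WT its log2 fold change of 0.70 (SE 0.17) had adjusted p = 0.084 in edgeR, and 0.68 with adjusted p = 0.0111 without the 1753 libraries. In dKO against KO the log2 fold change of 0.65 (SE 0.16) had adjusted p = 0.278, and it was 0.35 with adjusted p = 0.507 without those libraries.

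The deposited exons of Hacl1 share 108 bases with Btd on the opposite strand and 199 bases with Colq on the same strand, and the strand setting of the counting is not given in the sources used here. Btd in dKO against WT was at 0.51 on the log2 scale (adjusted p = 0.241) and Colq was at -1.21 (adjusted p = 0.278), neither past the test in edgeR. Phyh (ENSMUSG00000026664) acts one step ahead of Hacl1 in the same pathway. It was at 63.3, 54.8, 79.9, 54.6 and 63.0 CPM in WT, at 85.4, 78.2, 79.1, 66.8 and 73.0 in KO, and at 54.2, 67.3, 67.8, 60.5 and 67.8 in dKO. The groups overlapped, and dKO ran from 54.2 to 67.8 beside 54.6 to 79.9 in WT. The log2 fold change of Phyh was 0.28 in KO against WT (adjusted p = 0.472), -0.27 in dKO against KO (adjusted p = 0.79) and 0.01 in dKO against WT (adjusted p = 0.987, edgeR). Without the 1753 libraries the comparisons with dKO gave -0.28 (adjusted p = 0.587) and -0.01 (adjusted p = 0.994).

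Nudt7 was the other gene that passed. It lies at mm9 chromosome 8, 116657457 to 116676212, plus strand, with 4 exons (ENSMUSG00000031767), and encodes a peroxisomal diphosphatase that cleaves coenzyme A and its esters. Its values were 18.6, 13.9, 15.1, 14.9 and 21.4 CPM in WT, 34.5, 38.5, 31.8, 23.9 and 24.0 in KO, and 20.1, 33.4, 29.8, 51.4 and 53.1 in dKO. Every KO library was above every WT library, while dKO replicate 1 fell inside the WT range. In dKO against WT it rose by a log2 fold change of 1.18 (SE 0.24, 2.27-fold, edgeR adjusted p = 0.0263). Without libraries 1753 and 1753-2 that value was 0.71 and did not pass (adjusted p = 0.236). In KO against WT the log2 fold change was 0.87 (SE 0.24, adjusted p = 0.129), and 0.86 with adjusted p = 0.0107 without the 1753 libraries. In dKO against KO it was 0.32 (adjusted p = 0.86) and turned to -0.15 (adjusted p = 0.889) without them.

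**Figure D3:**
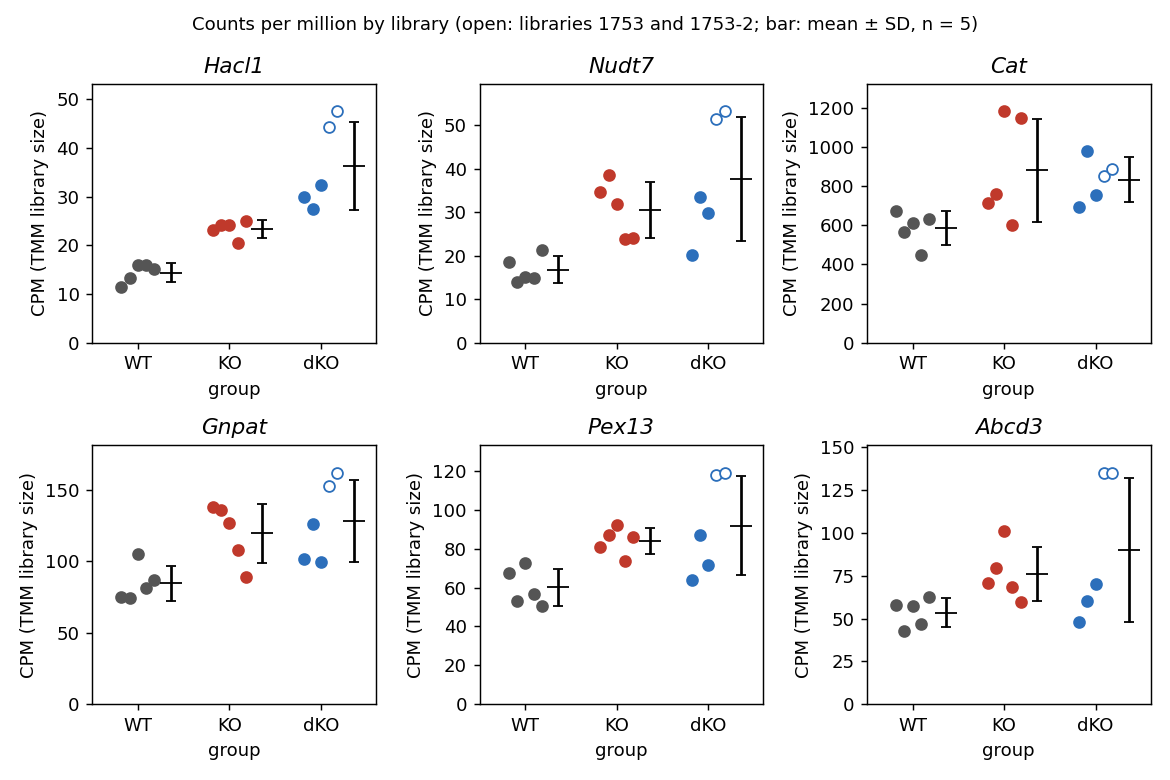
CPM (counts scaled to a common library total after TMM) of 6 peroxisome genes, with 1 point per library, open points for libraries 1753 and 1753-2, and bars for the group mean and SD (n = 5). The groups of Hacl1 do not overlap, with means of 14.4, 23.4 and 36.3 CPM, while in Abcd3 both open points at 135 CPM lie above the other 13 libraries.

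The other members of the acyl transfer and coenzyme A group did not pass in any comparison. Mlycd (ENSMUSG00000074064) encodes malonyl-CoA decarboxylase, found in peroxisomes, mitochondria and cytosol. It was at 6.80, 5.27, 10.7, 7.25 and 7.48 CPM in WT, at 9.15, 10.4, 9.89, 10.9 and 12.3 in KO, and at 8.44, 11, 8.08, 13.3 and 15.9 in dKO. WT replicate 3 lay among the KO values, so the groups overlapped. For Mlycd the log2 fold change came to 0.48 in KO against WT (adjusted p = 0.519) and 0.65 in dKO against WT (adjusted p = 0.20, edgeR), or 0.31 (adjusted p = 0.84) without the 1753 libraries, both of which lay above the other 13. Nudt19, a related coenzyme A diphosphatase, had 0.39 in KO against WT, and Crot, which makes carnitine esters of shortened acyl groups for export, had -0.01.

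The 11 peroxins had a median log2 fold change of 0.19 in KO against WT, with 9 positive and 2 at an unadjusted p under 0.05, Pex11a and Pex13. Pex13 (ENSMUSG00000020283) is part of the docking complex through which matrix proteins enter. It was at 67.5, 53, 72.8, 56.5 and 50.5 CPM in WT, at 81.1, 86.8, 92.0, 73.7 and 86.0 in KO, and at 63.9, 87.1, 71.5, 118 and 119 in dKO. KO lay wholly above WT by a narrow margin, while 2 of the dKO libraries fell inside the WT range. For Pex13 the log2 fold change was 0.48 (SE 0.17, adjusted p = 0.285) in KO against WT and 0.63 (SE 0.17, adjusted p = 0.104) in dKO against WT, or 0.30 (adjusted p = 0.635) without the 1753 libraries, in edgeR. Pex11a (ENSMUSG00000030545) promotes elongation and division of peroxisomes. It was at 50.7, 27.6, 34.7, 24.8 and 28.3 CPM in WT, at 49.7, 60.3, 52.9, 33.7 and 38.5 in KO, and at 36.7, 61.0, 42.3, 79.4 and 75.5 in dKO. WT replicate 1 reached the KO values, and the 1753 libraries were the highest of all. For Pex11a the log2 fold change was 0.50 (SE 0.24, adjusted p = 0.521) in KO against WT and 0.84 (SE 0.24, adjusted p = 0.123) in dKO against WT, or 0.49 (adjusted p = 0.639) without the 1753 libraries.

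Pex7 (ENSMUSG00000020003) is the import receptor for a small set of enzymes that includes Phyh and the ether lipid enzyme Agps. It was at 11.5, 14.3, 14.6, 9.54 and 13.6 CPM in WT, at 18.4, 20.2, 10.3, 17.6 and 17.8 in KO, and at 13, 15.3, 16.8, 24.6 and 29.9 in dKO. KO replicate 3 lay inside the WT range, apart from the other 4 KO libraries. The log2 fold change of Pex7 was 0.43 (adjusted p = 0.617) in KO against WT and 0.69 (adjusted p = 0.195) in dKO against WT, or 0.22 (adjusted p = 0.885) without the 1753 libraries, in edgeR. The other peroxins had log2 fold changes in KO against WT of -0.08 to 0.31. Among them were Pex5, the main import receptor, at 0.20, and Pex14, its docking partner, at 0.31. The membrane assembly factors Pex3, Pex16 and Pex19 were at -0.01, 0.10 and 0.17. Pex10, a ubiquitin ligase of receptor recycling, was at 0.19, and Pex6 and Pex26, the recycling ATPase and its membrane anchor, were at 0.13 and -0.08. The log2 fold change of Pex16 in dKO against KO was 0.66 (adjusted p = 0.79), or 0.02 without the 1753 libraries, where it stood at 25.0 and 24.3 CPM against 6.45 to 15.5 elsewhere.

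Both ABC transporters of acyl-CoA were highest in the 1753 libraries. Abcd2 (ENSMUSG00000055782) was at 238, 207, 266, 150 and 199 CPM in WT, at 259, 266, 330, 223 and 251 in KO, and at 218, 293, 246, 388 and 397 in dKO. Abcd3 (ENSMUSG00000028127), the abundant membrane protein that takes up branched and dicarboxylic acyl-CoA, was at 57.8, 42.8, 57.3, 46.9 and 62.5 CPM in WT, at 70.5, 79.2, 101, 68.5 and 59.5 in KO, and at 48.0, 60.5, 70.3, 135 and 135 in dKO. In both genes all 3 groups overlapped. In dKO against WT the log2 fold change was 0.54 for Abcd2 (adjusted p = 0.195) and 0.76 for Abcd3 (adjusted p = 0.195), and without the 1753 libraries 0.24 and 0.14 (edgeR adjusted p = 0.795 and 0.92). In KO against WT these were 0.32 and 0.50 (adjusted p = 0.638 and 0.585).

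Of the 8 tested beta-oxidation genes, 7 were positive in KO against WT, with a median log2 fold change of 0.37, and none passed. Hsd17b4 (ENSMUSG00000024507) was at 126, 82.4, 122, 105 and 102 CPM in WT, at 183, 170, 142, 134 and 127 in KO, and at 126, 122, 145, 253 and 242 in dKO. KO did not overlap WT, with the closest libraries at 127 and 126. The log2 fold change of Hsd17b4 was 0.50 (adjusted p = 0.412) in KO against WT and 0.73 (adjusted p = 0.12) in dKO against WT, or 0.27 (adjusted p = 0.715) without the 1753 libraries, in edgeR. Scp2 (ENSMUSG00000028603) was at 222, 189, 228, 176 and 223 CPM in WT, at 265, 270, 469, 226 and 334 in KO, and at 175, 252, 197, 348 and 353 in dKO. KO replicates 3 and 5 were the high KO libraries, and the groups overlapped. For Scp2 the log2 fold change came to 0.59 (adjusted p = 0.31) in KO against WT, 0.38 (adjusted p = 0.721) without KO replicate 3, and -0.23 (adjusted p = 0.872) in dKO against KO, or -0.57 (adjusted p = 0.286) without the 1753 libraries. In KO against WT, Pecr, a trans-enoyl-CoA reductase, had 0.55, Amacr, the racemase that prepares branched chains, had 0.41 and Ehhadh, the L-bifunctional enzyme, had 0.32. Decr2, the dienoyl-CoA reductase, had 0.19, the thiolase gene Acaa1a had 0.09 and Acox3, a branched-chain oxidase, had -0.13.

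The catalase gene Cat (ENSMUSG00000027187, mm9 chromosome 2, 103294006 to 103325317, 13 exons) was at 673, 565, 614, 448 and 630 CPM in WT, at 715, 757, 1181, 603 and 1145 in KO, and at 692, 980, 752, 851 and 888 in dKO. Every dKO library exceeded every WT library, while KO replicate 4 lay inside the WT range and KO replicates 3 and 5 were the highest of all. For Cat the log2 fold change came to 0.59 (SE 0.19, adjusted p = 0.224) in KO against WT, -0.08 (adjusted p = 0.964) in dKO against KO, or -0.11 (adjusted p = 0.914) without the 1753 libraries, and 0.51 (SE 0.19, adjusted p = 0.229) in dKO against WT, or 0.46 (adjusted p = 0.549) without the 1753 libraries, in edgeR. KO replicate 3 also had the highest summed skeletal muscle markers, 3690 CPM, and KO replicate 5 had 288, beside 25.9 to 1362 in WT. With muscle markers as a covariate Cat had 0.46 (adjusted p = 0.557) and Scp2 had 0.45 (adjusted p = 0.694) in KO against WT. The counts of called members were 0 in KO against WT, 0 in dKO against KO and 2 in dKO against WT, as without the covariate. Over all genes the shares called fell to 0.361%, 0.0574% and 0.377%, from 0.624%, 0.0738% and 0.615% without it.

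Gnpat (ENSMUSG00000031985) encodes the acyltransferase of the first step of ether lipid synthesis. It was at 75.1, 74.7, 105, 81.6 and 86.8 CPM in WT, at 138, 136, 127, 108 and 89.3 in KO, and at 102, 126, 99.5, 153 and 162 in dKO. KO replicate 5 and dKO replicates 1 and 3 lay below the highest WT library. For Gnpat the log2 fold change came to 0.50 (SE 0.16, adjusted p = 0.235) in KO against WT and 0.61 (SE 0.16, adjusted p = 0.102) in dKO against WT, or 0.37 (adjusted p = 0.529) without the 1753 libraries, in edgeR. Agps, which swaps the acyl for an alkyl group in the next step, had -0.01 in KO against WT, and Far1, which supplies the fatty alcohol, had 0.21.

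Lonp2 (ENSMUSG00000047866) encodes the peroxisomal Lon protease. It was at 74.0, 79.9, 90.0, 64.1 and 70.0 CPM in WT, at 94.2, 95.4, 101, 85.2 and 113 in KO, and at 74.3, 85.4, 103, 121 and 121 in dKO. KO replicate 4 lay below the highest WT library, and the other 4 lay above all of WT. Its log2 fold change was 0.37 (SE 0.14, adjusted p = 0.372) in KO against WT and 0.42 (SE 0.14, adjusted p = 0.199) in dKO against WT, or 0.19 (adjusted p = 0.814) without the 1753 libraries, in edgeR. The membrane proteins Pxmp2, a channel for small solutes, and Pxmp4 were among the few members with negative values in KO against WT, -0.59 (SE 0.35, adjusted p = 0.661) and -0.11 (SE 0.21, adjusted p = 0.931). Pxmp2 rests on 4 to 62 counts per library.

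**Figure D4:**
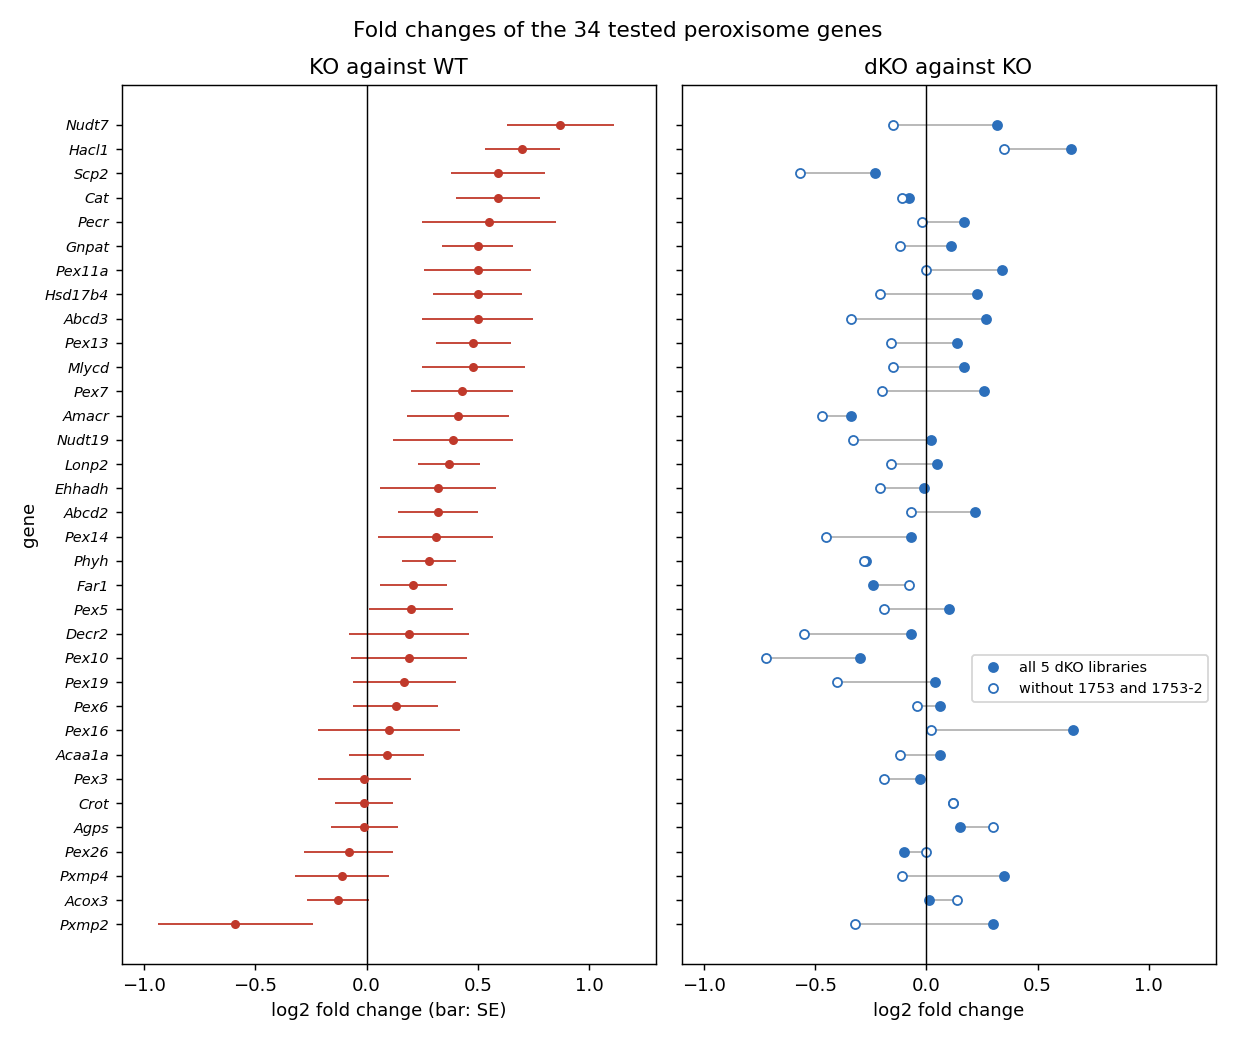
Log2 fold changes of the 34 tested peroxisome genes, on the left for KO against WT with bars of 1 SE, and on the right for dKO against KO with all 5 dKO libraries (filled) and without 1753 and 1753-2 (open). The median on the left is 0.32, and on the right it is 0.08 for the filled and -0.15 for the open points.

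A second list held 45 other peroxisome genes, of which 34 were tested. In KO against WT 25 had a positive log2 fold change (median 0.18). At an unadjusted p under 0.05 in edgeR there were 9 (26.5%), against 9.54% of all genes. There edgeR called 0 against 0.624% of all genes, DESeq2 called 1 against 1.42% and voom called 1 against 2.35%. Without the 1753 libraries edgeR called 2, against 2.14% of all genes. In dKO against KO 21 were positive (median 0.07). There edgeR, DESeq2 and voom each called 0, against 0.0738%, 0.304% and 0.0738% of all genes. In edgeR 4 had an unadjusted p under 0.05, 11.8% against 6.17% of all genes. Without the 1753 libraries the direction turned, with 8 of 34 positive and a median of -0.18. For dKO against WT 27 were positive (median 0.25) and Tysnd1 rose, 1 of 34 against 0.615% of all genes. At an unadjusted p under 0.05 in edgeR there were 4 (11.8%), against 14.5% of all genes. Without the 1753 libraries 20 were positive (median 0.04) and edgeR called 0 against 0.238% of all genes. In that fit 3 had an unadjusted p under 0.05 (8.82%), against 7.9%. Tysnd1, the protease that trims imported peroxisomal enzymes, was at 4.71, 6.20, 4.16, 4.58 and 6.95 CPM in WT, at 9.49, 9.42, 14.6, 8.92 and 12.3 in KO, and at 7.79, 12.3, 9.95, 14.8 and 14.5 in dKO. Both targeted groups lay wholly above WT. Its log2 fold change was 1.19 (SE 0.23, adjusted p = 0.0228) in dKO against WT and 1.01 (SE 0.23, adjusted p = 0.0581) in KO against WT. Without the 1753 libraries these were 0.91 (adjusted p = 0.232) and 0.99 (adjusted p = 0.0222), in edgeR.

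Among 11 regulators of these genes, Ppargc1a alone passed in edgeR, in KO against WT and in dKO against WT, beside 0.624% and 0.615% of all genes. It encodes the coactivator PGC-1alpha and was at 18.8, 21.1, 25.8, 29.4 and 24.0 CPM in WT, at 90.1, 78.5, 55.0, 33.7 and 57.4 in KO, and at 42.2, 65.3, 36.1, 70.8 and 68.6 in dKO. KO and dKO lay wholly above WT and overlapped each other. It rose in KO against WT by a log2 fold change of 1.42 (SE 0.24, adjusted p = 0.00769) and in dKO against WT by 1.27 (SE 0.24, adjusted p = 0.0218), the latter 1.03 (adjusted p = 0.171) without the 1753 libraries. Of the 11 regulators DESeq2 called 1 in each of these comparisons, against 1.42% and 1.93% of all genes. With voom 1 passed in KO against WT, against 2.35%, and 0 passed in dKO against WT, against 0.23%. The mitochondrial branch of fatty acid oxidation, 21 tested genes, had larger values. In KO against WT 20 were positive with a median log2 fold change of 0.67, and 5 rose in edgeR, 23.8% against 0.624% of all genes. DESeq2 called 9 against 1.42% of all genes and voom called 10 against 2.35%, all higher. In dKO against WT 21 were positive with a median of 0.63, and 2 rose in edgeR, 9.52% against 0.615% of all genes. DESeq2 called 7, all higher, against 1.93% of all genes, while voom called 0 against 0.23%. In dKO against KO 8 were positive with a median of -0.06 and edgeR, DESeq2 and voom each called 0, with 1 at an unadjusted p under 0.05 in edgeR. Without the 1753 libraries 10 rose in KO against WT (median 0.66), 1, the thiolase gene Acaa2, fell in dKO against KO by a log2 fold change of -1.01 (adjusted p = 0.015), and 0 passed in dKO against WT (median 0.22, with 6 at an unadjusted p under 0.05). In dKO against KO without those libraries 19 of the 21 were negative (median -0.48), and 15, all lower, had an unadjusted p under 0.05, 71.4% against 9.36% of all genes. The medium-chain and long-chain dehydrogenase genes Acadm and Acadl rose in KO against WT by 0.97 (adjusted p = 0.00394) and 1.03 (adjusted p = 0.00612) on the log2 scale. Acaa2 rose by 1.25 (adjusted p = 0.0337) and Slc25a20, the carnitine carrier, by 0.75 (adjusted p = 0.0422).

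Among markers of cell types, the thermogenic list had calls in every comparison. In edgeR 8 of its 10 tested genes rose in KO against WT, 7 rose in dKO against WT and 1 fell in dKO against KO. The shares of all genes called were 0.624%, 0.615% and 0.0738%. Without the 1753 libraries the counts for this list were 8, 2 and 1, against 2.14%, 0.238% and 0.151% of all genes. In dKO against WT DESeq2 called 8 against 1.93% of all genes, and voom called 3 against 0.23%. Summed thermogenic adipocyte markers, 11 listed and 10 tested, ran from 73.1 to 137 CPM over the WT libraries, from 546 to 1412 over KO and from 270 to 426 over dKO, with none at 0 in every library. Ucp1, the defining gene of thermogenic fat, had means of 13.9, 489 and 98.5 CPM for WT, KO and dKO. Cidea, of the same list, had means of 10.3, 20.4 and 7.51 CPM. In dKO against WT 9 of the 10 tested genes had a positive log2 fold change and 1 had a negative one. Summed skeletal muscle markers, 14 listed and 11 tested, ran from 25.9 to 1362 CPM over WT, from 94.2 to 3690 over KO and from 39.8 to 521 over dKO, with Tnnc2 at 0 in every library. Summed macrophage markers, 11 of 12 in the table and all 11 tested, ran from 939 to 1896 CPM over WT, from 806 to 1086 over KO and from 708 to 972 over dKO. Of the macrophage and muscle markers edgeR called 0 in each comparison. Of the macrophage markers 7 in KO against WT and 8 in dKO against WT had an unadjusted p under 0.05, all lower, against 0 of the muscle markers. Over all genes 9.54% and 14.5% were under that limit in these 2 comparisons. DESeq2 called 2 macrophage markers, lower in dKO than in WT, against 1.93% of all genes, voom called 0, and neither called a muscle marker. The sum of 8 mammary and skin epithelium markers, none of which reached the filter with all libraries, ran from 0.726 to 55.3 CPM. It was highest in dKO replicate 3 (55.3), WT replicate 1 (53.4) and dKO replicate 2 (33.9). Without the 1753 libraries 4 of these markers reached the filter. In dKO against KO all 4 were then higher at an unadjusted p under 0.05 in edgeR (median log2 fold change 3.26), against 9.36% of all genes, with 0 called. The part of these cell types in the peroxisome gene values was not tested, apart from the fit with muscle markers given beside Cat.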

How the data were processed

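Per the labels' protocols, RNA of 15 libraries was prepared with an RNeasy kit and NuGEN Ovation reagents. The submitters' processing notes name mm9, edgeR, featureCounts, Subread and FastQC, without versions or strand setting. Per the file headers, the authors deposited raw counts per gene with gene coordinates and exon lengths. A further 45 per-sample columns were not used.

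Counts were fitted in R 4.3.3 with edgeR 4.0.16 (robust quasi-likelihood, TMM, all 15 libraries, 12 residual degrees of freedom). The expression filter (minimum count 10, minimum total 15) left 12188 genes. Two-sided tests were followed by Benjamini-Hochberg adjustment over these genes, with a threshold of 0.05. CPM uses the TMM library size, RPKM divides it by deposited exon length, and SE is the log2 fold change over the root of F. Scripts were tested on simulated data. Genes whose exons overlap others (13 of 37 members) may share reads. Alternatives used DESeq2 1.42.0 and limma 3.58.1.

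Values are given by library for members called or at an unadjusted p under 0.01 in any comparison and for the 5 highest by RPKM. Members and lists were chosen with earlier results of these data known. Motifs were searched in RefSeq promoter windows of GRCm38.p6, whose coordinates differ from mm9.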

Additional observations from a re-analysis of the deposited data

Results flagged for a closer look

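Pex7 in KO replicate 3 was at 10.3 CPM, far below the other 4 KO libraries at 17.6 to 20.2. The gap to its nearest neighbour was 0.735 of the range of the group, above Dixon's critical value of 0.71 for 5 samples. Of 42 groups examined (14 genes in 3 genotypes) this was the 1 that met the criterion. Chance gives about 1 in 20, so 1 among 42 is no more than chance would give.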

How the results depend on the processing

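No paired analysis was possible because the labels carry no replicate numbers or pairing. Over 24 alternatives, the counts of members called in KO against WT moved from 0 to 1 with DESeq2, to 3 with limma voom, and to 2 both with only the 2 groups compared and without libraries 1753 and 1753-2. The shares of all genes called in those fits were, in that order, 1.42%, 2.35%, 1.91% and 2.14%, beside 0.624% with edgeR on all libraries. In dKO against WT the count moved from 2 to 4 with DESeq2 and to 1 with voom, with only the 2 groups compared, with 1753 and 1753-2 summed to 1 sample, and without both. The shares of all genes there were 1.93%, 0.23%, 0.27%, 0.21% and 0.238%, beside 0.615% with edgeR on all libraries. Leaving out 1 library at a time gave 1 to 7 calls in this comparison. It gave 7 of 34 (20.6%) without dKO replicate 1 (Nudt7, Gnpat, Pex13, Hacl1, Hsd17b4, Abcd3 and Pex11a), where 1.94% of all genes were called, beside 0.615% with all libraries. It gave 1 without WT replicates 1, 2, 3 or 4 or dKO replicates 4 or 5, where 0.218 to 0.292% of all genes were called. Without both 1753 libraries the median log2 fold change of the members was -0.15 in dKO against KO and 0.10 in dKO against WT, and Nudt7 in dKO against KO reversed to -0.15. Nudt7 in dKO against WT passed in 14 of the 24 alternatives, with log2 fold changes of 0.71 to 1.32. The causes were not tested. The dKO against KO count stayed at 0 in all 24, and the KO against WT median stayed between 0.22 and 0.38. The members' counts, 3916 to 52039 per library, limit precision, as for Pxmp2 with 4 to 62.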
